A study of Homo sapiens with 8 samples.

Results

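The metallothionein genes MT1A, MT1E, MT1F, MT1G, MT1M, MT1X, MT2A and MT3 lie together on chromosome 16, where they run over 95123 bp of GRCh37 (hg19) from 56622986 to 56718108. The 8 genes, of 20163 protein-coding genes in the annotation, were set against peaks of HIF-1β chromatin immunoprecipitation and sequencing (ChIP-seq). They were chosen by their HIF-1β peaks, since the overlap of some of them with peaks of these lists and the scores of those peaks were already known, so their peaks are described here and not tested. A peak was assigned to a gene when it met the gene body extended by 5 kb on each side. Of 18645 peaks in all, 10 were found this way, and they fell into 4 regions at MT2A, MT1X, MT1F and MT1A. In 5 of the 8 libraries there was at least 1 of these peaks.

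The 8 libraries were duplicates from cancers of 4 human tissues, with A549 representing lung, HCT-116 the large bowel, PC-3 the prostate and T47D breast cancer that expresses the oestrogen receptor. Cells of every library had been kept at 0.5% oxygen for 16 h, the labels name no genetic change, and neither cells in normal oxygen nor a control library was analysed here. HIF-1β was precipitated with a polyclonal antibody and peaks were called by the authors in each replicate separately. The labels do not say whether replicates were separate cultures. The lists held between 1042 peaks (PC-3 replicate 1) and 3790 peaks (HCT-116 replicate 2), with no reads, so depth is unknown and the identity of the lines could not be checked against marker genes. A region with overlapping peaks of both replicates of a line was called a site, and the lines had 2062 (T47D), 1756 (HCT-116), 1041 (A549) and 970 (PC-3) such sites.

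Metallothioneins are small cysteine-rich proteins that bind zinc, copper and cadmium and buffer the free metal in the cell. Their genes are switched on by zinc and cadmium through MTF1, a zinc-finger factor that binds metal response elements (MREs) in their promoters, and also by glucocorticoid and oxidative stress. HIF-1β (ARNT) is the partner that HIF-1α and HIF-2α need to bind DNA at RCGTG, where R is A or G. It also pairs with the aryl hydrocarbon receptor at sequences that contain GCGTG, so a HIF-1β peak does not by itself name the other subunit. MT2A and the MT1 genes are expressed in many tissues, whereas MT3 is best known from brain.

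Both kinds of motif were found in each of the 4 regions, though not in every peak. Among all sites of a line, between 96.3 and 99.0% held a HIF motif and between 66.6 and 84.3% an MRE. MREs were searched as TGCACNC and TGCGCNC and HIF motifs as ACGTG and GCGTG, each on both strands of GRCh37, and a match is a run of letters, not a proven site. An MRE of the form TGCACGC reads GCGTG on the other strand, so the motifs can overlap. In the sequences printed here, all from the plus strand, capitals mark either motif on either strand, so that CACGC or CACGT in capitals is a HIF motif on the minus strand and GNGTGCA or GNGCGCA an MRE on the minus strand. Bases directly before the start of MT2A (chr16:56642246-56642495) and of MT1X (chr16:56716172-56716381) are shown because peaks of both T47D replicates covered these starts.
MT2A: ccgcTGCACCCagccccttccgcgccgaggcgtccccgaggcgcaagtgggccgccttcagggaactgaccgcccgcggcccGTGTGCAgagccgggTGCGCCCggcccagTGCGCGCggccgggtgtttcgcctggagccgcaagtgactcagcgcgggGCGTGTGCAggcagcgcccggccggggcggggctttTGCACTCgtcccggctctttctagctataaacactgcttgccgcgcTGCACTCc
MT1X: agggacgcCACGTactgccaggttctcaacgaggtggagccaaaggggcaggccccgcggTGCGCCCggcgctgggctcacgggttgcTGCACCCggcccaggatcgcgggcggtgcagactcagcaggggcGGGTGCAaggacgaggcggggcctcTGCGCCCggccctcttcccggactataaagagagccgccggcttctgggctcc
Bases directly before the start of the pseudogene MT1DP (chr16:56677437-56677636) are shown because the single-replicate peak in the window of MT1A was centred there.
MT1DP: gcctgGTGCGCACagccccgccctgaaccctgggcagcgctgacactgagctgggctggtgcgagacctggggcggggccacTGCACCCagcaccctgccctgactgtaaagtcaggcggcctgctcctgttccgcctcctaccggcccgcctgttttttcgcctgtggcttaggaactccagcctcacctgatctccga
Upstream of MT2A, the PC-3 peak contained 2 HIF motifs, each shown with 28 bases on either side (chr16:56640785-56640845 and chr16:56641391-56641451).
upstream motif 1: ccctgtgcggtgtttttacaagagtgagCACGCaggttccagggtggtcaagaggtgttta
upstream motif 2: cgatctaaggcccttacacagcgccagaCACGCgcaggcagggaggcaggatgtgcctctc
The centre of the HCT-116 site before MT1F (chr16:56688237-56688436) is shown because this site had the highest scores of the cluster.
site before MT1F: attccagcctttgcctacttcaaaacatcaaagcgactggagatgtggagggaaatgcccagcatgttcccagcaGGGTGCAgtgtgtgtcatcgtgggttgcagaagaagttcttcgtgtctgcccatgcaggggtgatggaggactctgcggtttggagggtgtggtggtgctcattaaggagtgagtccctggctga

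Sites were found at MT2A and MT1X in T47D cells and at MT2A and MT1F in HCT-116 cells, that is at 2 of 8 members in each line. Among all protein-coding genes, 10.5% had a T47D site and 9.27% an HCT-116 site in the same window, and these shares are given as background since the members were picked with their peaks known. No member had a site in PC-3 cells, where 4.34% of genes had one, or in A549 cells, where 3.79% did. By library, 2 members had a peak in T47D replicate 1 (15.0% of genes) and in T47D replicate 2 (14.2%), 3 in HCT-116 replicate 2 (19.5%) and 2 in HCT-116 replicate 3 (9.93%). PC-3 replicate 2 had a peak at 1 member (11.1%), and PC-3 replicate 1 (4.60%), A549 replicate 2 (5.95%) and A549 replicate 3 (4.58%) had 0. Over the 4 lines together, 3 of 8 members had a site in at least 1 line, against 16.4% of genes, and 4 of 8 had a peak in at least 1 library, against 31.6%. The members are short, between 914 and 2968 bp, and among the 1718 genes of at most 2968 bp the share with a site in at least 1 line was 8.15%. By line, the share among these short genes was 5.30% in T47D, 4.66% in HCT-116, 2.27% in PC-3 and 1.51% in A549 cells. MT1E, MT1M, MT1G and MT3 had no peak in any library, and MT1A had a peak of HCT-116 replicate 2 and no other.

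**Figure D1:**
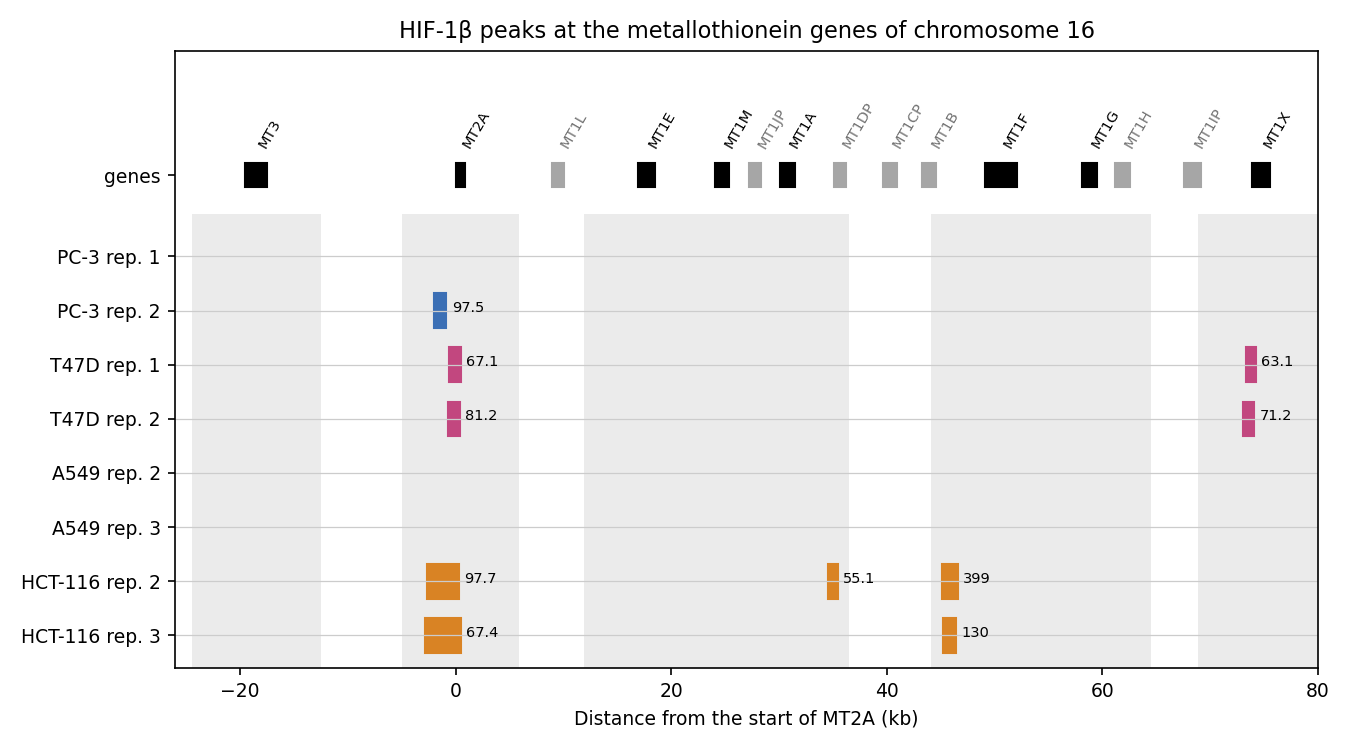
Peaks of each library (coloured bars, with their scores) along the metallothionein cluster, plotted by distance from the start of MT2A in kb. Black boxes are the 8 members, grey boxes other metallothionein genes and pseudogenes, and the shaded columns are member gene bodies extended by 5 kb. Peaks lie at MT2A in 5 libraries, at MT1X in both T47D libraries, before MT1F in both HCT-116 libraries and after MT1A in 1 HCT-116 library.

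MT2A, which in many human tissues is the most highly expressed metallothionein, had peaks in more libraries than any other member, namely 5 of 8 from 3 lines. In T47D cells the peak of replicate 1 (56641866 to 56642991) scored 67.1 and that of replicate 2 (56641817 to 56642866) scored 81.2. Their centres were at -68 and -155 bp from the start of MT2A, where negative values lie before the start, and both peaks covered the start. The replicate peaks shared 1001 bp, which was 88.9% of the one and 95.3% of the other. Their centres were 87 bp apart, close to the median of 82.0 bp over all T47D sites. The scores were low for the line: 66.9% of the peaks of replicate 1 and 55.6% of those of replicate 2 scored higher, and by mean score (74.2) the site ranked 1665 of 2062. Near these ranks agreement between replicates was itself partial. Of the 200 peaks within 100 ranks on either side, 49.5% in replicate 1 and 72.5% in replicate 2 overlapped a peak of the other replicate.

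In HCT-116 cells the peaks at MT2A were much wider. The peak of replicate 2 ran over 2994 bp (56639823 to 56642816) with a score of 97.7, and that of replicate 3 over 3323 bp (56639654 to 56642976) with a score of 67.4. Only 1.24% of the peaks of replicate 2 and 0.680% of those of replicate 3 were as wide or wider. In score the peaks did not stand out, since 48.8% and 71.7% of peaks scored higher, and the site ranked 1450 of 1756 by mean score (82.6). Both peaks covered the start of MT2A, from -2673 to 320 bp in replicate 2 and from -2842 to 480 bp in replicate 3. The centres were 4 bp apart and the shared part was 2994 bp, so that the replicate 2 peak lay wholly within that of replicate 3. Of peaks with similar ranks, 36.0% in replicate 2 and 84.5% in replicate 3 were found in the other replicate.

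In PC-3 cells a peak before MT2A was present in replicate 2 but not in replicate 1. It ran over 1130 bp from 56640518 to 56641647, scored 97.5 (43.4% of peaks scored higher), and ended 849 bp before the start of MT2A, with its centre at -1414 bp. Replicate 1 had 1042 peaks against 2891 in replicate 2, and the peak ranked 1256 in its own list. Of the 200 peaks closest to it in rank, 21.5% overlapped a peak of replicate 1, so the absence of this peak from the shorter list was shared by most peaks of its rank. The PC-3 peak overlapped neither T47D peak, being 218 and 169 bp away from them. It lay wholly within both HCT-116 peaks, which also contained between 84.5 and 100% of each T47D peak. The wide HCT-116 interval thus spanned the upstream position seen in PC-3 cells and the promoter position seen in T47D cells. The lists hold no summits, so whether 1 or several places are bound within the wide interval cannot be read from them.

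**Figure D2:**
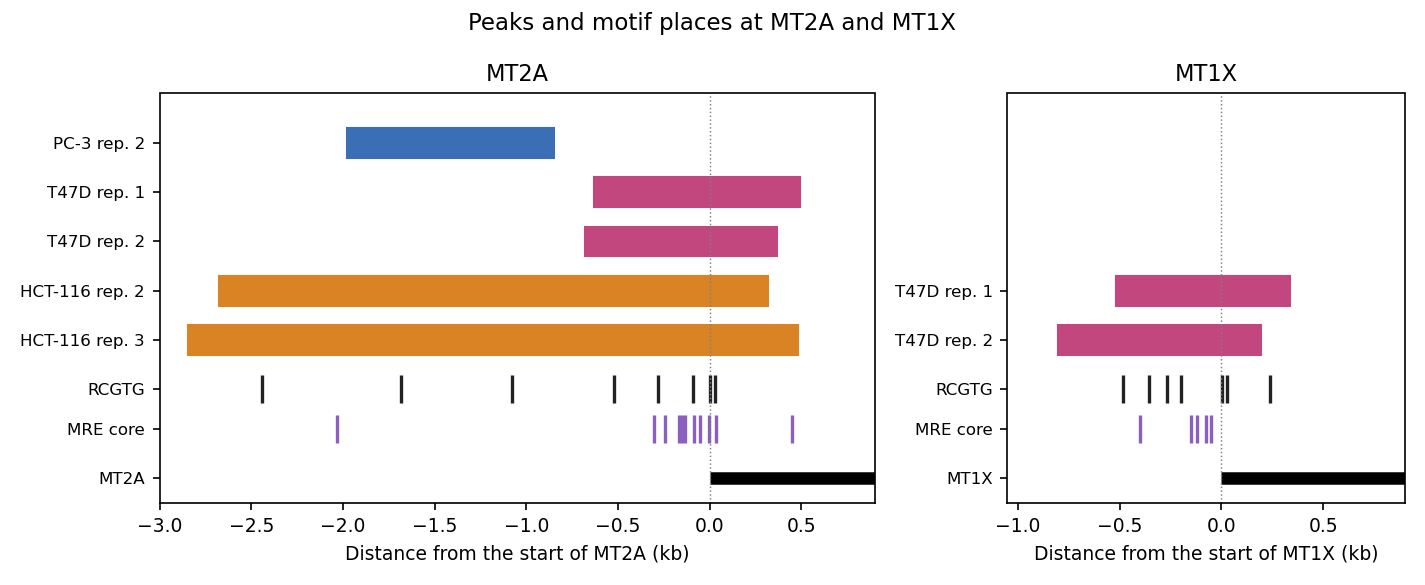
Peaks at MT2A (left) and MT1X (right) by distance from the start of each gene in kb, with ticks at RCGTG and MRE matches under the peaks and the gene body in black. At MT2A the PC-3 peak and the T47D peaks do not overlap, the HCT-116 peaks span both, and most MRE matches fall under the T47D peaks.

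Motif matches under the MT2A peaks differed between the upstream and the promoter position. The interval covered by any peak (56639654 to 56642991) held 8 HIF motifs and 11 MREs. Of these, 5 HIF motifs and 10 MREs were in the T47D site, at a density of 8.51 MREs per kb, against a median of 1.21 over all T47D sites. The PC-3 peak held 2 HIF motifs, both shown with the sequences, and 0 MREs. In the central 200 bp of the T47D site there were 2 HIF motifs and 6 MREs. Over all T47D sites, 64.3% had a HIF motif and 28.6% an MRE in the central 200 bp. In the HCT-116 site the central 200 bp, around -1181 bp, held 0 of either. Counting the start as position 1, with no position 0, the HIF motif GCGTG at -90 ran into an MRE that began at -88, and that at 31 lay inside an MRE that covered 31 to 37.

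MT1X, an MT1 isoform with wide expression, had a site in T47D cells and no peak in any other line. The peak of replicate 1 (56715864 to 56716721) scored 63.1 and that of replicate 2 (56715581 to 56716578) scored 71.2, and both covered the start of MT1X. These were weak peaks, with 72.3% and 65.0% of peaks scoring higher, and the site ranked 1807 of 2062. The replicate peaks agreed less well in position than at MT2A: the shared part was 715 bp and the centres, at -90 and -303 bp, were 213 bp apart, a distance reached or exceeded at 14.5% of T47D sites. Of the 200 peaks closest in rank, 94 in replicate 1 and 112 in replicate 2 were found in the other replicate. The site held 7 HIF motifs, or 6.13 per kb against a median of 3.28, and 5 MREs. The HIF motifs nearest the start were at -202, 3 and 25. A long non-coding RNA, ENSG00000259827, starts on the same base as MT1X, so the site belongs to its promoter as well.

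MT1F, another MT1 isoform, was assigned the strongest site of the cluster, which lay 2567 bp before its gene body. In HCT-116 cells the peak of replicate 2 (56687598 to 56689076) scored 399 and that of replicate 3 (56687713 to 56688896) scored 130. These values ranked 343 of 3790 and 645 of 1913, with 9.02% and 33.7% of peaks scoring higher. The replicate peaks shared 1184 bp and their centres were 33 bp apart. Almost all peaks of similar rank, 99.0% in replicate 2 and 99.5% in replicate 3, were found in both replicates. The centre of the site was at -3534 bp from the start of MT1F but 2539 bp after that of MT1B, whose gene body ended 482 bp from the site. The site is intergenic and MT1B was nearer, so its assignment to MT1F came from the fixed window. It covered no start of a metallothionein gene, had a GC content of 48.0% against a median of 59.0% over HCT-116 sites, and held 3 HIF motifs and 4 MREs. In its central 200 bp there was 1 MRE and no HIF motif, whereas 72.9% of HCT-116 sites had a HIF motif there.

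The reference sequence of this site is less unique than that of most others. Of all 31-base words in the replicate 2 peak, 71.6% occur once in GRCh37, and of those in the replicate 3 peak 70.7%. Over the HCT-116 sites the median was 99.84% and the 10th percentile 82.40%. In the replicate 2 peak 204 words occur over 100 times in the genome, all between 56687906 and 56688895, with up to 65869 copies of a single word. In the central 200 bp 97.6% of words were unique. The part that repeated sequence plays in the score was not tested.

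MT1A, an MT1 isoform, was assigned 1 peak, of HCT-116 replicate 2 (56677022 to 56677967), which began 3023 bp beyond the end of its gene body. The score of 55.1 was close to the lowest in the list, with 91.2% of peaks scoring higher, and replicate 3 had no peak there. Of peaks with similar ranks, 8.50% were found in replicate 3. Its centre was 4916 bp after the start of MT1A but at -143 bp from that of the pseudogene MT1DP and at -28 bp from that of the long non-coding RNA ENSG00000291095. The peak held 4 HIF motifs and 7 MREs, of which 1 and 5 were in its central 200 bp. All of its words (100%) were unique in the genome.

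**Figure D3:**
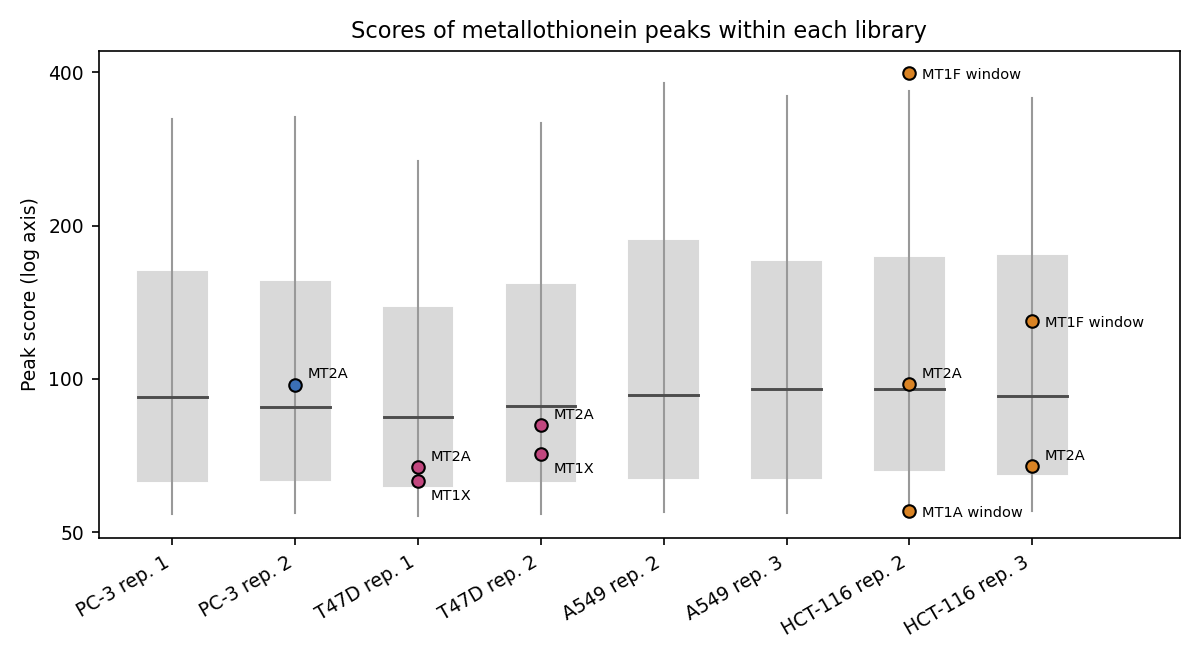
Scores of the 10 metallothionein peaks (points) on a log axis, beside all peaks of each library: line, median; box, middle 50% of peaks; whisker, 10th to 90th percentile. The site before MT1F stands above the 90th percentile in HCT-116 replicate 2, and the other 8 peaks outside that site range from 55.1 to 97.7.

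The members without a peak had their nearest peak beyond the 5 kb limit. Such distances are not given here for all protein-coding genes, so whether they are large was not tested. The nearest peak of any library was 9129 bp from the gene body of MT1M, 11566 bp from MT1G, 14654 bp from MT3 and 15998 bp from MT1E, whereas the members just inside the 5 kb limit, MT1F and MT1A, had peaks at 2567 and 3023 bp. Any limit between 3023 and 9129 bp would have given the same 4 members with a peak. MT1E, MT1M and MT1G are metal-inducible MT1 isoforms, and MT3 was first described as a factor that inhibits the growth of neurons.

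In A549 cells the nearest peak to every member was in an intron of NUP93, which encodes a nuclear pore protein, between 130124 and 223383 bp away. That peak was present in replicate 2 (score 254) and replicate 3 (score 103), and T47D cells also had a site there with scores of 199 and 203. In PC-3 replicate 1 the nearest peak was between 7616663 and 7710059 bp away from the members. The 3 libraries without a metallothionein peak were therefore not libraries with peaks just outside the window.

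**Figure D4:**
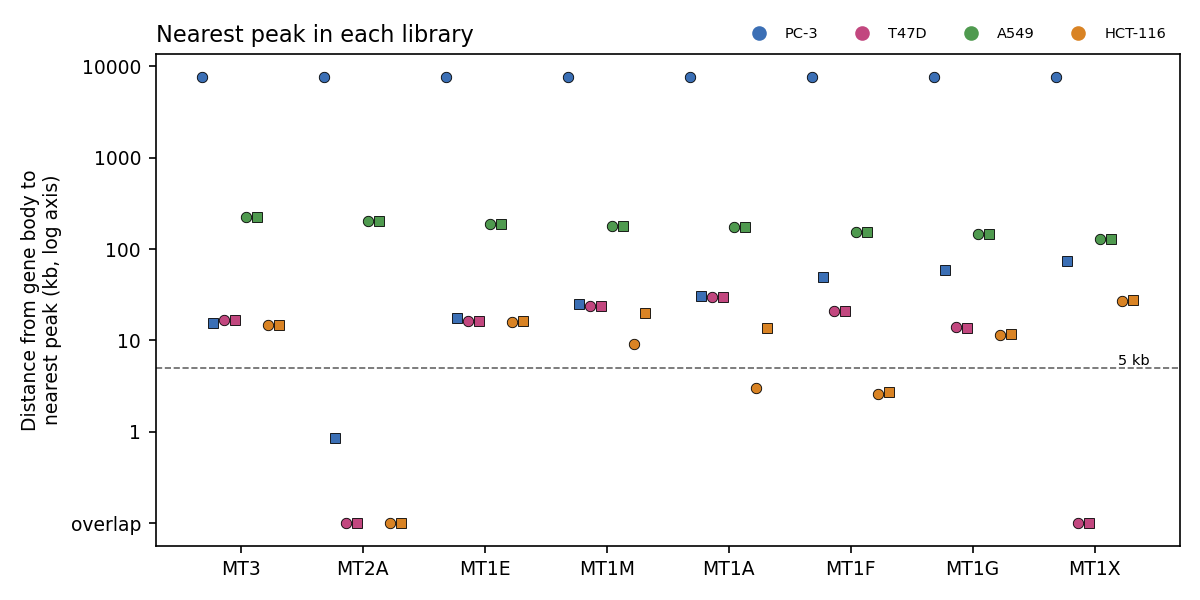
Distance in kb (log axis) from each member's gene body to the nearest peak of each library, with colours for lines, circles for the lower and squares for the higher replicate number, and overlapping peaks drawn at the bottom. The dashed line is the 5 kb limit. A549 and PC-3 replicate 1 lie above 100 kb at all 8 members.

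Promoters of members with and without peaks had MREs alike. From 250 bases before to 50 after the start, all 8 members had at least 1 MRE and 7 had 3 or more, the exception being MT1A with 1. Among the 20163 protein-coding promoters, 36.3% had an MRE and 3.16% had 3 or more. MT2A had 8 MREs, the highest count of the members. MT1F and MT1G each had 6, and of these MT1F had no peak at its start and MT1G no peak at all.

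HIF motifs did not separate the members with a peak at the start from the others either. A HIF motif was found in 7 of 8 member promoters (87.5%), against 56.3% of all, and MT1E had 0. MT3 had 4, all before the start, which was the highest count of the members, and it had no peak. MT2A and MT1X had 3 each. Of the members, MT2A, MT1X and MT3 had a HIF motif before the start, and in MT1M, MT1A, MT1F and MT1G every match was after it. An RCGTG inside an MRE was found in MT2A and MT3, against 3.14% of all promoters. With 8 related genes, these counts are a description of the sequences.

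**Figure D5:**
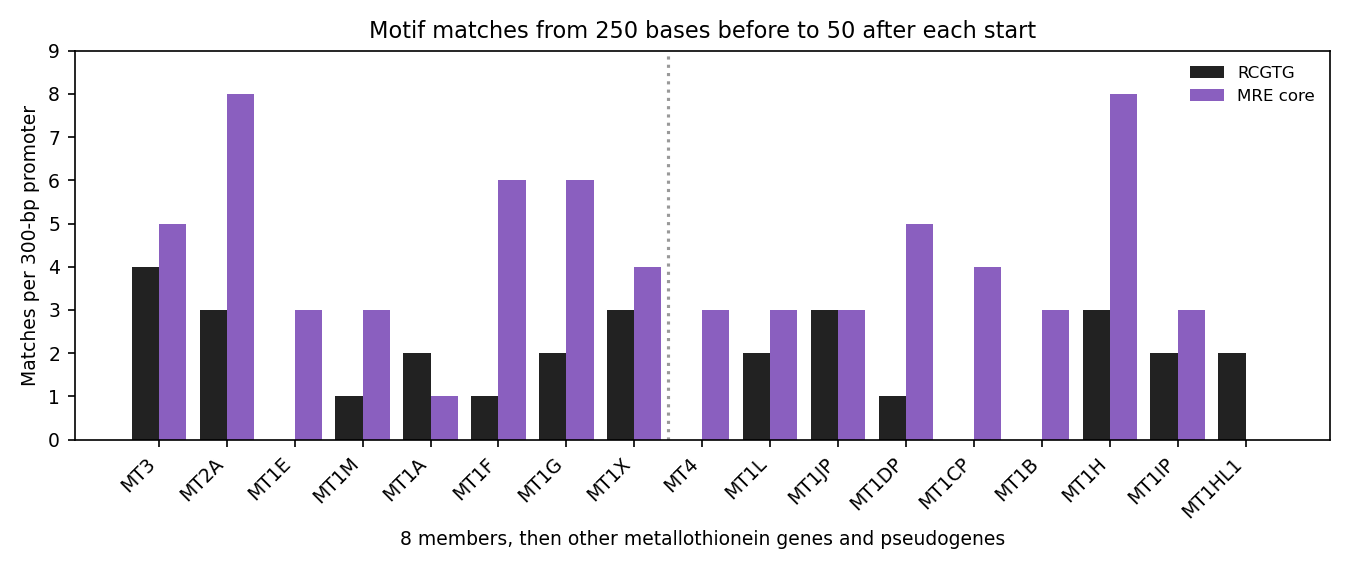
Matches per 300-bp promoter to RCGTG (black) and to the MRE core (purple) for the 8 members, left of the dotted line, and for other metallothionein genes and pseudogenes. MREs range from 1 to 8 and RCGTG from 0 to 4 over the members.

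The metallothionein genes are copies of each other, which can limit how reads are placed. Between member promoters, identity ranged from 48.6% (MT1A and MT1F) to 75.5% (MT1E and MT1M). Identity between unrelated promoters was not measured, so the lower values do not by themselves show shared sequence. In the 1 kb around the start, the share of 31-base words that occur once in the genome was 85.5% for MT1M, 96.8% for MT2A and between 97.6 and 100% for the other 6 members. Gene bodies were less unique, from 73.9% in MT1M to 99.6% in MT3. Over the whole window used to assign peaks, the members without a peak were less unique (MT1E 76.9%, MT1M 81.1%, MT1G 83.8% and MT3 85.8%) than those with a peak (MT1A 90.0%, MT1F 90.5%, MT2A 91.2% and MT1X 91.4%). Around the start the order was different, since MT1E, MT1G and MT3 had 98.1, 97.6 and 99.3% of unique words. The part of shared sequence in the lack of peaks was not tested.

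The pattern over lines can be set beside that of all sites. A T47D site overlapped an HCT-116 site, as at MT2A, in 37.9% of cases, and an HCT-116 site overlapped a T47D site in 44.5%. The overlaps of T47D sites with PC-3 and A549 sites were 20.8% and 17.6%, and those of HCT-116 sites 31.2% and 26.6%. A site in all 4 lines within the window was found at 1.49% of protein-coding genes and at 0 of the 8 members.

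Among 9 other metallothionein genes and pseudogenes (MT4, MT1L, MT1JP, MT1DP, MT1CP, MT1B, MT1H, MT1IP and MT1HL1), all peaks were those already described. MT1B and MT1CP shared the HCT-116 site with MT1F, and MT1IP shared the T47D site with MT1X. MT1DP and MT1CP shared the single-replicate peak with MT1A. A site in at least 1 line was thus found at 3 of these 9 (33.3%, against 16.4% of protein-coding genes and 8.15% of those of at most 2968 bp). Among 9 neighbouring genes of the cluster, only NUP93 had a site (11.1%), the one already described for A549 and T47D cells.

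Zinc and copper handling genes were set beside the members as a whole list of 32, with the metal-sensing factor MTF1, zinc exporters (SLC30), zinc importers (SLC39), copper transporters and copper chaperones. A site was found in at least 1 line at 7 of the 32 (21.9%, against 16.4% of all genes), and 10 had a peak in at least 1 library, a share close to the 31.6% of all genes. By line there were 5 in T47D cells (10.5% of all genes), 3 in HCT-116 cells (9.27%) and 1 each in PC-3 (4.34%) and A549 cells (3.79%). MTF1 had no peak in any library, and SLC30A1, a zinc exporter that MTF1 also activates, had a peak of HCT-116 replicate 2 and no other. The same was true of SLC30A3, and 19.5% of all genes had a peak in that library. SLC39A14 had a peak of A549 replicate 2 alone (5.95% of all genes).

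SLC31A1, SLC39A1, SLC39A3 and SLC39A6 had a site close to the start. SLC31A1, the main copper importer of the cell surface, had a T47D site centred at -205 bp with scores of 295 and 306, and 13.4% of T47D sites had a higher mean score. The zinc importers SLC39A1 and SLC39A3 had weaker T47D sites at -206 bp (scores 86.0 and 53.2) and at -103 bp (scores 50.3 and 73.2). SLC39A6, another zinc importer, had an HCT-116 site at -318 bp with scores of 248 and 93.9.

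The others had sites far from their starts. SLC39A11, a zinc importer with a long gene body, had sites in PC-3, A549 and HCT-116 cells, all between 376360 and 452044 bp after its start. In HCT-116 cells its site with the highest mean score had scores of 1047 and 286, and another had 606 and 484. ATP7B, a copper-exporting ATPase, had a T47D site 11690 bp after its start with scores of 69.4 and 74.2. PC-3 replicate 1 and PC-3 replicate 2 also had peaks in the ATP7B window, but these did not form a site. ATOX1, the chaperone that hands copper to ATP7B, had a T47D site at -13117 bp (scores 159 and 71.0). A separate HCT-116 site lay 13199 bp after the ATOX1 start (scores 119 and 66.8). The T47D site lay over 5 kb before that start, so it met the window only because the annotated gene body extends further upstream. Starts of other genes near the sites of the zinc and copper handling genes were not looked up. By mean score, 80.7% of T47D sites were higher than that at MT2A and 87.6% than that at MT1X, which placed both below the SLC31A1 and ATOX1 sites of the same line, close to those of SLC39A1 (85.0%) and ATP7B (82.7%) and above that of SLC39A3 (92.8%).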

How the data were processed

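HIF-1β ChIP-seq was available for 8 libraries, 2 of each line. Per the labels and the methods of the study, the authors trimmed reads with Trim Galore 0.3.3, aligned them to GRCh37 with BWA 0.7.5a-r405, handled them with SAMtools 0.1.19, Picard 1.106 and bedtools 2.17.0, and called peaks in each library with MACS, whose version is not given in the sources used here. The deposited lists give an interval and a score for each peak. The authors did not define the score in the lists. Its lowest value is close to 50 in every list, so weaker enrichment is not visible, and scores were ranked only within a library. Low-complexity or repeated sequence and the unknown depth could both change which peaks were called. Per its methods, the study considered a peak only if T-PIC, another peak caller, and MACS both found it and 2 or more datasets shared it. Whether T-PIC was applied to the deposited lists is not visible.

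Peaks were assigned to genes of GENCODE release 44 lifted to GRCh37 by an overlap of at least 1 bp with the gene body extended by 5 kb. A site was a merged region with peaks of 2 replicates, counted on the main chromosomes. Motifs and 31-base words were searched in the GRCh37 primary assembly. Promoter identity came from global alignment. No test was run, because the members and gene lists were chosen with earlier results of these data known. All 8 members are named, with the other metallothionein genes, neighbouring genes, the metal handling genes with a site, and the nearest start to each peak. Some neighbours and some promoter sequences are not reported here. MTF1, SLC30A1, SLC30A3 and SLC39A14, all part of the list of 32, were named in addition after their values were seen. Overlap counting was tested on simulated lists. Other overlaps, score limits, windows, replicate choices and site centres were tried as alternatives. Scripts ran in Python 3.11.15 on Biopython 1.88, pysam 0.24.0, SciPy 1.17.1 and NumPy 2.4.6, with plots by Matplotlib 3.10.9, beside samtools 1.23.1 and bedtools 2.31.1.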

Additional observations from a re-analysis of the deposited data

How the results depend on the processing

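The sites at MT2A and MT1X rested on low scores, and that before MT1F did not. With the higher-scoring 50% of each list, and likewise with scores of 100 or more, T47D cells had 0 members and 0 sites, and HCT-116 cells 1 member and 1 site. With a peak of either replicate, PC-3 cells had 1 member and 1 site. HCT-116 cells had 1 member with the gene body alone or 2 kb on each side, while 25 kb on each side gave 7 members in T47D cells and 7 in HCT-116 cells. In each line these 7 were reached by the 2 sites already described, because such wide windows of neighbouring members overlap. Shares of all genes at these other window widths are not given here. With a single replicate, the counts of members and of sites ranged from 0 to 1 in PC-3 cells, where replicate 2 alone gave 1, from 2 to 2 in T47D cells, from 0 to 0 in A549 cells and from 2 to 3 in HCT-116 cells. In the central 200 bp, RCGTG fell to 2 and MREs to 6 in the T47D site at MT2A, to 2 and 1 at MT1X, to 0 and 0 in the HCT-116 site at MT2A, and to 0 and 1 in that before MT1F. RCGTG fell to 0 in the PC-3 peak and to 1 in the peak after MT1A. Taken from the highest-scoring peak, the centre at MT2A moved to -155 bp in T47D cells (from -92) and to -1177 bp in HCT-116 cells (from -1181), and that at MT1X to -303 bp (from -231). No position changed from before to after the start. No paired analysis was possible because the results come from no test. The unknown depth limits what an absent peak means.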
